A study of Homo sapiens with 6 samples.

Results

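The genes described here encode the aminoacyl-tRNA synthetases and the scaffold proteins that hold some of them together. They were taken as a fixed list of 39 gene names and looked up by gene name in the deposited count table, where all 39 were found among 57396 genes. The list holds 20 cytosolic enzyme genes, 16 mitochondrial enzyme genes, whose names end in 2, and 3 scaffold genes, AIMP1, AIMP2 and EEF1E1. Gene names are those of the deposited table, so that CARS, SARS, WARS, MARS and EPRS are the genes now called CARS1, SARS1, WARS1, MARS1 and EPRS1.

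The libraries were made from PC-3, an established human cell line that goes back to a bone metastasis of prostate cancer. In the SAM group, 3 libraries came from PC-3 cells given 160 µM S-adenosylmethionine (SAM), the methyl donor of most cellular methylation reactions, for 5 days. In the control group, 3 libraries came from PC-3 cells of the same line given PBS vehicle for 5 days. All of the cells are a single cancer line. The labels do not say whether replicates were separate cultures, so the p-values rest on a spread among libraries that could be technical.

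An aminoacyl-tRNA synthetase joins 1 kind of amino acid to its tRNA, and the charged tRNA then carries that amino acid to the ribosome. Cytosol and mitochondria mostly use separate enzymes, all of them encoded in the nucleus, and several cytosolic enzymes sit in a multisynthetase complex built around AIMP1, AIMP2 and EEF1E1. When amino acids run short, uncharged tRNA activates the kinase GCN2 (EIF2AK4), which phosphorylates eIF2 and so favours translation of the transcription factor ATF4. ATF4 in turn is known to raise transcription of many cytosolic synthetase genes, along with genes for amino acid synthesis and uptake.

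The libraries held between 9379258 and 28995160 gene counts, and a floor of 3 counts corresponded to between 0.103 and 0.320 CPM (counts scaled to library size). SAM 2 and control 1 were the shallowest libraries and stood apart in composition. The transcript CTD-2328D6.1 took 1.56% of the counts in SAM 2 and 1.18% in control 1, against 0.0324 to 0.0636% in the other 4 libraries. SAM 3 differed from the rest in its relation to GC content, where its level rose by 0.12 log2 units for each 10 points of GC, while the slope in the others lay between -0.06 and -0.00. The epithelial genes KRT8, KRT18, EPCAM and CD44 averaged between 440 and 1048 CPM in SAM and between 420 and 1062 CPM in control libraries. KLK3, the gene of prostate-specific antigen, had 0 counts in all 6 libraries, as is usual for PC-3. Of the markers of other cell types, COL1A1 of fibroblasts averaged 16.8 CPM in SAM and 17.7 CPM in control libraries, and PTPRC of leukocytes and ALB of hepatocytes were below the filter on low counts, which all 39 members passed.

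In SAM-treated cells, the cytosolic enzyme genes CARS, SARS, WARS, MARS and EPRS were lower than in controls, EPRS having dropped by 22.8% and CARS having dropped by 34.3%, whereas FARSA and RARS were 35.2% and 28.7% higher. Among the mitochondrial enzyme genes, CARS2 and VARS2 were 35.3% and 33.6% higher and none passed the test as lower. By edgeR's quasi-likelihood test with Benjamini-Hochberg adjustment over 15312 genes, 5 of 39 members (12.8%) fell, 4 (10.3%) rose and 30 did not pass an adjusted p of 0.05. Over all genes tested, 5.24% were called lower and 5.19% higher, 10.4% in either direction, against 23.1% of the members. The values are relative to each library's total RNA from a bulk lysate, in which fewer cells with a transcript and less of it per cell cannot be told apart. Each of the 9 calls was lost when SAM 1, control 1, control 2 or control 3 was left out and kept without SAM 2 or SAM 3. Without 1 of those 4 libraries, 78 to 141 of all genes tested were lower and 61 to 114 higher, against 803 and 795 with all 6 libraries.

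**Figure D1:**
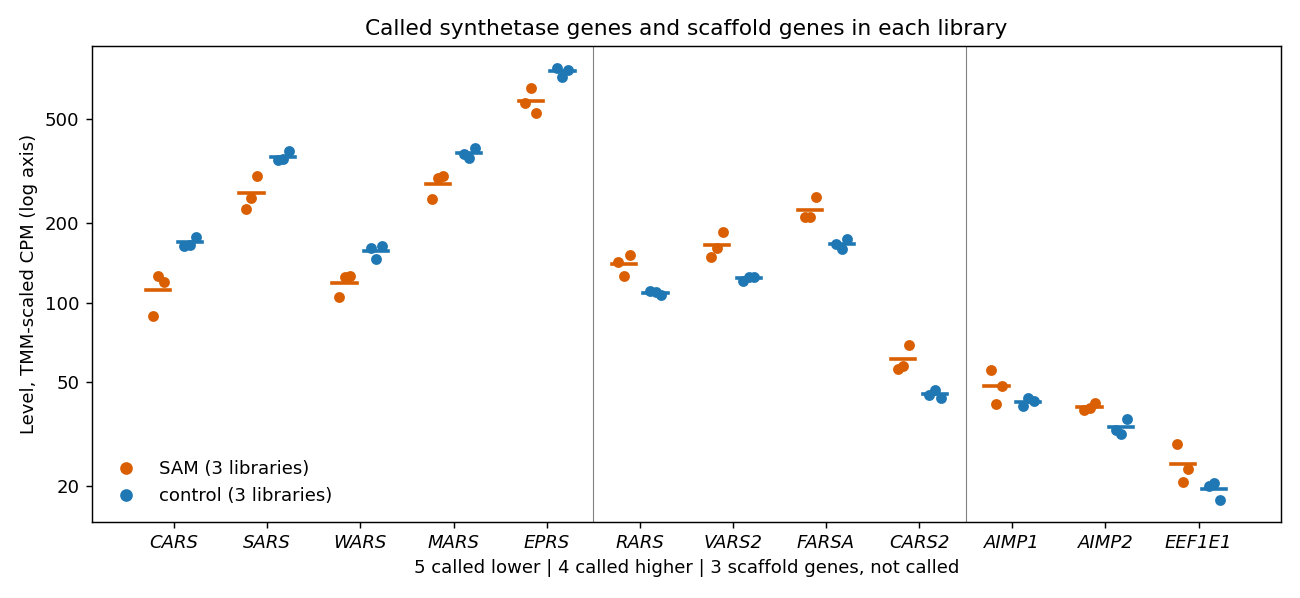
Level of the 9 called members and the 3 scaffold genes in each library, in TMM-scaled CPM on a log axis, with SAM libraries in orange left of control libraries in blue. Points are libraries and horizontal bars are means of 3. The 5 genes at the left were lower in every SAM library than in every control library, and RARS, VARS2, FARSA and CARS2 were higher in every one.

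CARS, which charges tRNA with cysteine, had the largest drop of the 39 members. It was at 88.6, 126 and 120 CPM in SAM 1 to 3, against 164, 166 and 178 CPM in control 1 to 3. Every SAM library lay below every control library, SAM 1 lowest. The log2 fold change was -0.61 (SE 0.13, edgeR adjusted p 0.0227). The gene lies at chr11:3000922-3057613 on the minus strand in GRCh38.

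SARS charges the serine tRNAs and also supplies the serine that is turned into selenocysteine on its own tRNA. It was at 228, 251 and 303 CPM in SAM 1 to 3, against 350.0, 351 and 376 CPM in control 1 to 3. The groups did not overlap, and SAM 3 came closest to the controls. The log2 fold change was -0.46 (SE 0.11, edgeR adjusted p 0.0336).

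WARS, the tryptophan enzyme, which interferon gamma is also known to induce, was at 105, 125 and 126 CPM in SAM 1 to 3, against 162, 146 and 163 CPM in control 1 to 3. All SAM libraries lay below all controls, with SAM 1 again the lowest. The log2 fold change was -0.40 (SE 0.11, edgeR adjusted p 0.0417).

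MARS charges both the initiator and the elongator methionine tRNA and is a part of the multisynthetase complex. It was at 249, 299 and 304 CPM in SAM 1 to 3, against 369, 355 and 387 CPM in control 1 to 3. SAM 1 was the lowest library and the groups did not overlap. The log2 fold change was -0.38 (SE 0.10, edgeR adjusted p 0.0436). An exon of MARS overlaps DDIT3 on the opposite strand over 355 bases, and whether reads were counted by strand is not given. DDIT3 had far fewer counts, on average 466 per library against 5754 for MARS.

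EPRS encodes a single protein that charges both glutamate and proline tRNAs, and it too belongs to the complex. It was at 573, 656 and 526 CPM in SAM 1 to 3, against 784, 721 and 769 CPM in control 1 to 3. The highest SAM library, SAM 2, still lay below the lowest control. The log2 fold change was -0.37 (SE 0.10, edgeR adjusted p 0.0480).

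The called members that were higher came from both compartments. FARSA, the catalytic subunit of cytosolic phenylalanyl-tRNA synthetase, was at 212, 211 and 253 CPM in SAM 1 to 3, against 167, 159 and 174 CPM in control 1 to 3. Its groups did not overlap, SAM 3 was highest, and the log2 fold change was 0.44 (SE 0.10, edgeR adjusted p 0.0285). Its partner FARSB, the other subunit of the same enzyme, had a log2 fold change of 0.31 and did not pass (edgeR adjusted p 0.0541). RARS, the arginine enzyme of the complex, was at 143, 126 and 152 CPM in SAM 1 to 3, against 110, 110 and 107 CPM in control 1 to 3. SAM 2 was the lowest SAM library of RARS and still above all controls, with a log2 fold change of 0.36 (SE 0.10, edgeR adjusted p 0.0460).

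In the mitochondrial set, CARS2, the cysteine enzyme of the organelle, was at 55.8, 57.1 and 69.2 CPM in SAM 1 to 3, against 44.5, 46.5 and 43.5 CPM in control 1 to 3. VARS2, the mitochondrial valine enzyme, was at 150, 161 and 186 CPM in SAM 1 to 3, against 121, 125 and 125 CPM in control 1 to 3. In both genes every SAM library exceeded every control and SAM 3 was highest. The log2 fold change was 0.44 for CARS2 (SE 0.10, edgeR adjusted p 0.0293) and 0.42 for VARS2 (SE 0.10, edgeR adjusted p 0.0334). Exons of CARS2 overlap ING1 on the opposite strand over 334 bases.

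None of the 3 scaffold genes passed the test in either direction. AIMP1, whose product binds tRNA and is also secreted as a cytokine precursor, was at 55.5, 41.2 and 48.2 CPM in SAM 1 to 3, against 40.3, 43.1 and 42.0 CPM in control 1 to 3. Its groups overlapped through SAM 2 (log2 fold change 0.21, edgeR adjusted p 0.230). AIMP2, which bridges the enzymes of the complex, was at 38.9, 39.7 and 41.5 CPM in SAM 1 to 3, against 32.7, 31.6 and 36.04 CPM in control 1 to 3. The AIMP2 groups did not overlap, but the difference missed the threshold (log2 fold change 0.26, edgeR adjusted p 0.0921). Its exons overlap the more abundant EIF2AK1 over 532 bases on the opposite strand, with 661 counts on average for AIMP2 and 3591 for EIF2AK1. EEF1E1, which anchors MARS in the complex, was at 28.9, 20.8 and 23.3 CPM in SAM 1 to 3, against 19.95, 20.6 and 17.7 CPM in control 1 to 3. SAM 2 lay only just above the highest control (log2 fold change 0.34, edgeR adjusted p 0.126). For these 3 genes 0 calls were made by edgeR, DESeq2 or limma voom, while 2 had an unadjusted edgeR p under 0.05. No share of all genes at an unadjusted p is given, here or below, so such counts have no background.

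Some members came close to the threshold without passing. YARS, GARS and AARS, the tyrosine, glycine and alanine enzymes, had log2 fold changes of -0.40, -0.36 and -0.36 with edgeR adjusted p of 0.0652, 0.0641 and 0.0894. All of their SAM libraries lay below all of their control libraries. KARS, the lysine enzyme, which serves cytosol and mitochondria from 1 gene, had a log2 fold change of 0.27 (edgeR adjusted p 0.0938). Like KARS, GARS has no mitochondrial counterpart among the 39 members and was counted as cytosolic. MARS2, YARS2, LARS2 and EARS2, the mitochondrial methionine, tyrosine, leucine and glutamate enzymes, had log2 fold changes of 0.33, 0.30, 0.28 and 0.27 with edgeR adjusted p between 0.0763 and 0.0819. WARS2, the mitochondrial tryptophan enzyme, was the lowest of its set at -0.22 (edgeR adjusted p 0.135).

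**Figure D2:**
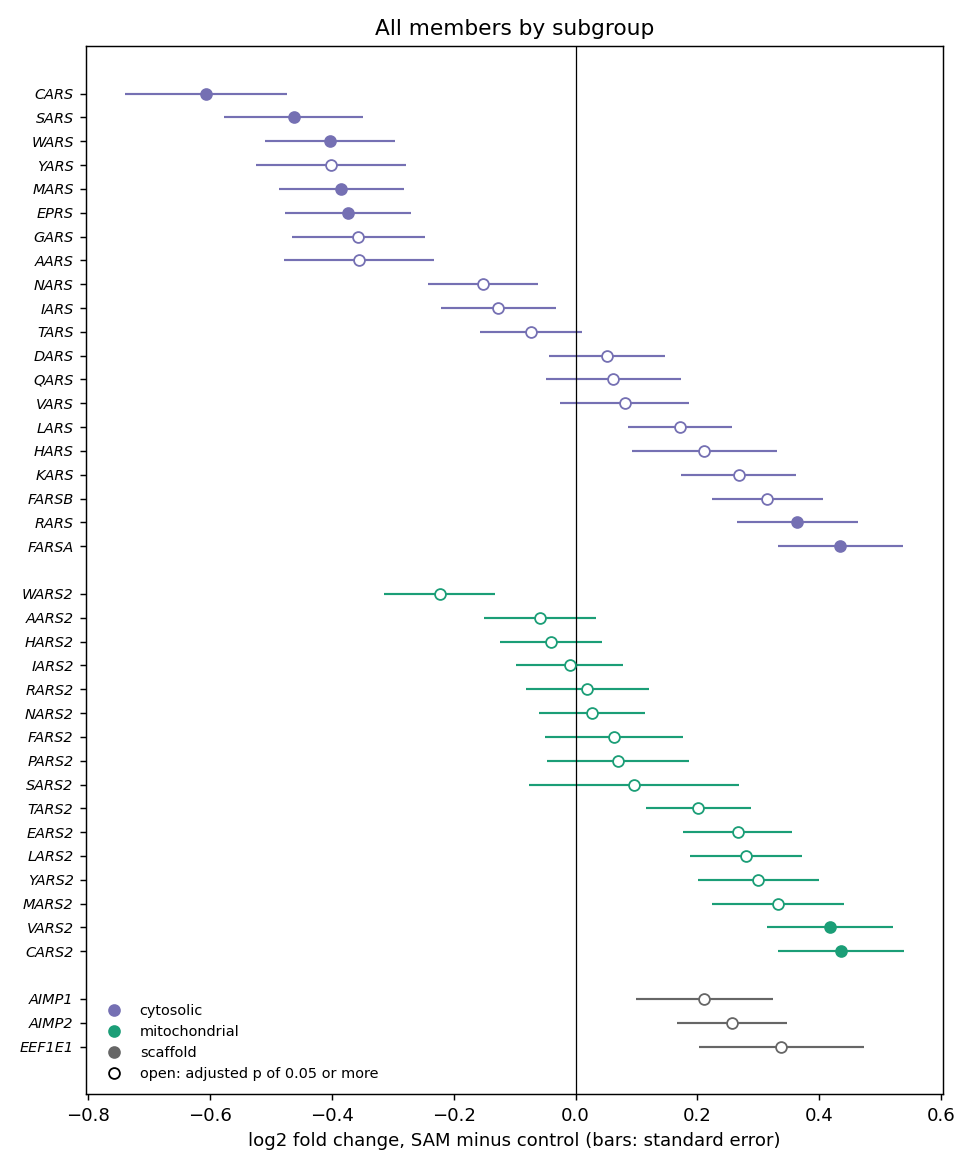
Log2 fold change, SAM minus control, of all 39 members in 3 groups, with bars of 1 standard error. Filled points passed an edgeR adjusted p of 0.05. The cytosolic genes spread from -0.61 for CARS to 0.44 for FARSA, whereas 12 of 16 mitochondrial genes and all 3 scaffold genes lay above 0.

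By compartment, 5 of the 20 cytosolic enzyme genes fell and 2 rose, with a median log2 fold change of -0.10 and 11 values below 0. Of the 16 mitochondrial enzyme genes, 0 fell and 2 rose, with a median of 0.08 and 12 values above 0. The edgeR calls over all genes tested were 5.24% lower and 5.19% higher. At an unadjusted edgeR p under 0.05, 1 mitochondrial gene was lower and 7 were higher, with no share of all genes to compare. Both DESeq2 and limma voom called 0 mitochondrial genes lower and 2 higher. The 3 scaffold genes had a median of 0.26, and all 15312 genes tested had a median of -0.01. The cytosolic median was thus 0.18 log2 units below the mitochondrial one, a description with no test. In 10 cytosolic genes all SAM libraries lay below all controls and in 5 all lay above, against 1 and 7 mitochondrial genes. Over all genes tested, 18.8% were lower and 17.9% higher without overlap, 36.7% in either direction, against 25 of 39 members (64.1%).

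The cytosolic genes were also divided by whether they are often listed as ATF4 targets. The lists were chosen with earlier results of these data known, so the division is a description. Over all genes tested, 5.24% were called lower and 5.19% higher, as a background for the counts below. Of the 13 listed genes, 5 fell (38.5%) and 0 rose, with a median log2 fold change of -0.36. LARS and VARS were the only listed genes with positive values, 0.17 and 0.08, and neither passed. With the trend on transcript length and GC content removed, LARS was called higher (log2 fold change 0.36, edgeR adjusted p 0.0204). The listed genes then had 6 lower and 1 higher calls and a median of -0.30. The other 7 genes, DARS, FARSA, FARSB, HARS, KARS, QARS and RARS, had 0 lower and 2 higher calls, a median of 0.27 and no value below 0. By membership of the complex, 2 of 8 enzymes inside it fell and 1 rose (median 0.06), while 3 of 12 outside it fell and 1 rose (median -0.25). MARS and EPRS fell while RARS of the same complex rose. By enzyme class, which reflects the fold of the catalytic domain, 3 of 9 class I genes fell and 1 rose, and 1 of 10 class II genes fell and 1 rose. EPRS, with 1 active site of each class, was counted in neither.

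Within libraries, the summed level of the 20 cytosolic enzymes was 4492, 4908 and 4968 CPM in SAM 1 to 3, against 5294, 5079 and 5395 CPM in control 1 to 3. The 16 mitochondrial enzymes together had 1149, 1133 and 1150 CPM in SAM 1 to 3, against 1054, 1064 and 1039 CPM in control 1 to 3. Neither sum overlapped between the groups, the cytosolic one being lower and the mitochondrial one higher with SAM. The ratio of both sums, which does not depend on library scaling, was 3.91, 4.33 and 4.32 in SAM 1 to 3, against 5.02, 4.77 and 5.19 in control 1 to 3. All 39 genes together took 0.577 to 0.610% of the counts in SAM libraries and 0.631 to 0.667% in control libraries.

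SAM 1, the deepest library, lay farthest below the controls for the listed genes. The median deviation of the 13 ATF4-listed genes from the control mean was -0.57, -0.23 and -0.24 log2 units in SAM 1 to 3. SAM 1 was the lowest SAM library in 9 of these 13 genes. In the other 7 cytosolic genes the median deviation was 0.19, 0.21 and 0.40 in SAM 1 to 3, highest in SAM 3. The median GC content was 46.6% for these 7 genes and 48.1% for all genes tested. With the trends on GC content and length removed, the 7 genes had a median log2 fold change of 0.27, as in the main fit. Why SAM 3 was highest was not tested. Per doubling of transcript length, the level changed by -0.05, 0.03 and -0.11 log2 units in SAM 1 to 3, against 0.07, 0.01 and 0.05 in control 1 to 3. The median transcript length was 4111 bases for the 13 listed genes and 2449 for the other 7. With the trends on GC content and transcript length removed, 6 cytosolic genes were lower, 4 were higher, and 6 mitochondrial genes were higher. Calls over all genes tested went up as well at this setting, to 1432 lower and 1396 higher, against 803 and 795.

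**Figure D3:**
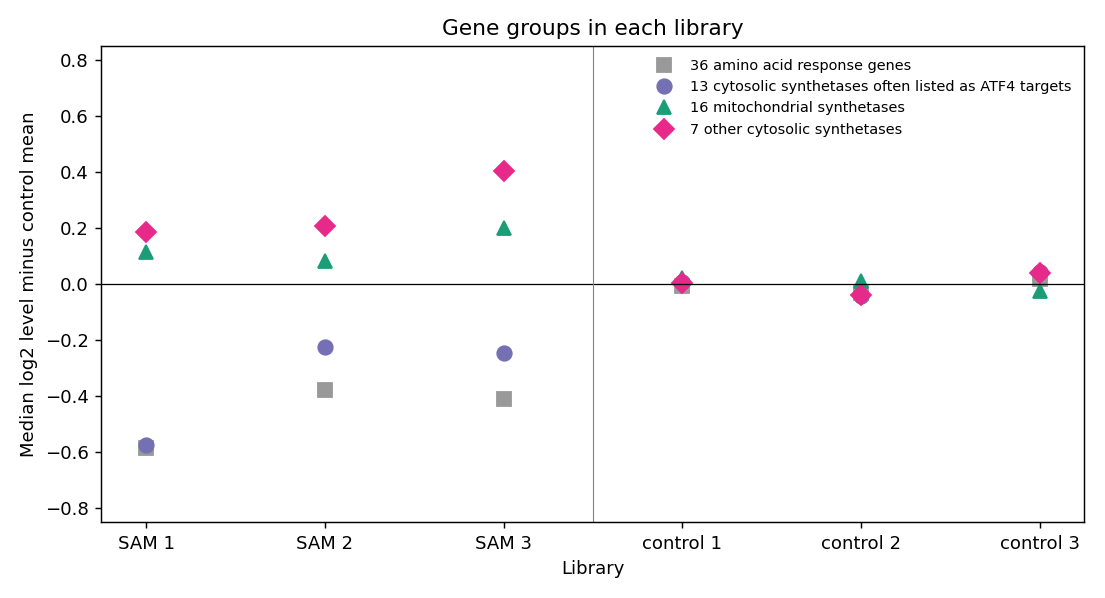
Median over genes of the log2 level minus the mean of the 3 controls, for 4 gene groups in each library, SAM libraries left of control libraries. The ATF4-listed synthetases and the amino acid response genes lay below 0 in all 3 SAM libraries and were lowest in SAM 1, while the other cytosolic and the mitochondrial synthetases lay above 0.

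Enzymes for the same amino acid could be paired across the compartments in 17 cases, with EPRS and FARS2 each used in more than 1 pair. The cytosolic log2 fold change lay below the mitochondrial one in 13 pairs and above it in 4, and the median difference was -0.28. Both cysteine enzymes passed in opposite directions, 1.04 log2 units apart. The CPM ratio of CARS to CARS2 was 1.59, 2.20 and 1.73 in SAM 1 to 3, against 3.68, 3.57 and 4.10 in control 1 to 3. The ratio of MARS to MARS2 was 8.68, 10.8 and 12.7 in SAM 1 to 3, against 16.2, 18.0 and 18.0 in control 1 to 3. These ratios were lower in every SAM library than in every control. The same held for 11 of the 17 pairs, whereas the ratio was higher without overlap in 4, those of FARSA and FARSB with FARS2, RARS with RARS2 and HARS with HARS2. No such share was computed over other gene pairs, and over single genes 36.7% did not overlap. HARS and HARS2 share 108 exon bases on opposite strands.

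**Figure D4:**
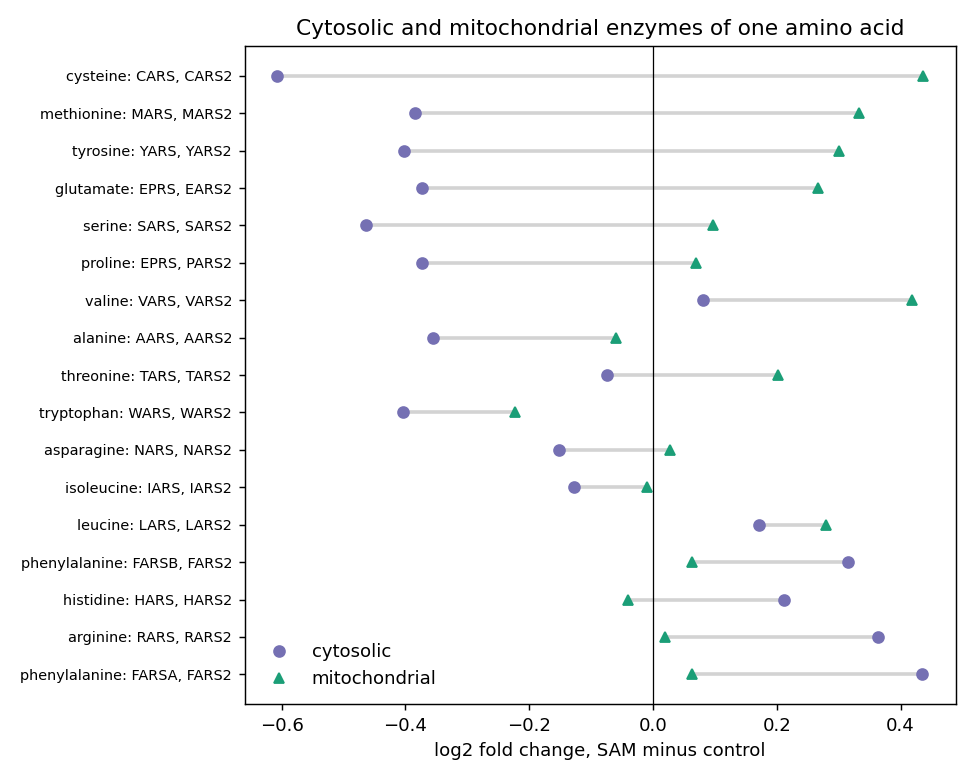
Log2 fold change, SAM minus control, of the cytosolic (circles) and the mitochondrial (triangles) enzyme gene for each amino acid, ordered by the difference. The widest gap was that of CARS and CARS2, and the 4 pairs at the bottom had the cytosolic gene above the mitochondrial one.

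Levels between genes were compared per kilobase of transcript, as TMM-scaled CPM per kb. TARS, the threonine enzyme, was the highest member in controls, with 201 CPM per kb in SAM and 211 CPM per kb in control libraries. SARS followed with 136 CPM per kb in SAM and 188 CPM per kb in control libraries, and EPRS with 120 CPM per kb in SAM and 156 CPM per kb in control libraries. SARS2, the mitochondrial serine enzyme, was lowest at 2.84 CPM per kb in SAM and 2.70 CPM per kb in control libraries. These places in the control order were unchanged with the length of the MANE Select transcript, an alternative chosen after the data were seen. IARS2, the isoleucine enzyme of mitochondria, had 129 CPM per kb in SAM and 130 CPM per kb in control libraries, more than most cytosolic members.

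The promoters are shown because 6 of the cytosolic genes carry the core of the composite site at which C/EBP and ATF proteins bind, TGATGNAA, which the choice of members did not use. RefSeq promoters on GRCh38.p14, from 250 bases before to 50 after the gene start, could be matched for 33 of 39 members. The 8 letters were searched on both strands and stood in 3.62% of all 35116 promoters and in 1.74% of 11079 promoters of tested genes. They stood in 6 of 16 matched cytosolic promoters (37.5%), those of AARS, CARS, IARS, MARS, NARS and TARS, in 1 of 14 mitochondrial ones, that of YARS2, and in 0 of 3 scaffold ones. A match is a description and not a proven binding site. The promoters of CARS and MARS, both called lower, follow 5′ to 3′ in the direction of the gene, with the match in capitals.
CARS (chr11:3057374-3057673, minus strand): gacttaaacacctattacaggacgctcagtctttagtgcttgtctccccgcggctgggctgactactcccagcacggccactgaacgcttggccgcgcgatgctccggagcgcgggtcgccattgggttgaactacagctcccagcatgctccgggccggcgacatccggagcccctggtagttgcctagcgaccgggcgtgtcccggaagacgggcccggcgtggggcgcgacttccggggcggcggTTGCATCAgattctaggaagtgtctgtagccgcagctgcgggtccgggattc
MARS (chr12:57487818-57488117, plus strand): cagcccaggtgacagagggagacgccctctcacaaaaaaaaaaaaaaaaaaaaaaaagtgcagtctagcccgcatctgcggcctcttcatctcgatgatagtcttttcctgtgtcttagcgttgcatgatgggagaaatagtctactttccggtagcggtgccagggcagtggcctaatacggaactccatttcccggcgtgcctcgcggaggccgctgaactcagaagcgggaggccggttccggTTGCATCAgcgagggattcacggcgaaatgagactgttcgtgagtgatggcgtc

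The other matches are shown with their flanks to compare them with those of CARS and MARS, again with the 8 matching bases in capitals.
AARS (chr16:70289670-70289709, minus strand): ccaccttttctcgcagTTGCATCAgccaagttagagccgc
IARS (chr9:92293687-92293726, minus strand): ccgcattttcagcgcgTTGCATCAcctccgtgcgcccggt
NARS (chr18:57621799-57621838, minus strand): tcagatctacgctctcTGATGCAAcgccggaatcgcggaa
TARS (chr5:33440951-33440990, plus strand): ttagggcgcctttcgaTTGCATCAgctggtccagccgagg
YARS2 (chr12:32756071-32756110, minus strand): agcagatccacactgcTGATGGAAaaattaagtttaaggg

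All 6 cytosolic matches read TTGCATCA in the direction of the gene or, for NARS, its complement TGATGCAA, while YARS2 had TGATGGAA. The first base of the match lay 2 bases before the start of CARS, 4 before that of MARS, 13 before that of IARS and 187 before that of AARS. The 6 genes with a match had a median log2 fold change of -0.25, between -0.61 for CARS and -0.07 for TARS, and only CARS and MARS passed the test. The 10 matched cytosolic genes without it had a median of 0.14, between -0.46 for SARS and 0.44 for FARSA. All 6 genes with a match were ATF4-listed, so these medians partly divide listed from other genes. The listed genes matched without the letters, EPRS, GARS, SARS and WARS, had log2 fold changes of -0.37, -0.36, -0.46 and -0.40. SARS, WARS and EPRS, which also fell, had no match in the window. Among the genes not listed as ATF4 targets, 0 of 6 matched promoters held the letters.

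Many of the wider set of amino acid response genes were also lower in SAM-treated cells. Of 36 such genes other than synthetases, 18 fell, 1 rose and 17 did not pass, against 5.24% lower and 5.19% higher over all genes tested, with a median log2 fold change of -0.46. FGF21, a secreted metabolic hormone, fell by 2.69 on the log2 scale. It was at 0.103, 0.169 and 0.462 CPM in SAM 1 to 3, against 1.39, 1.45 and 1.47 CPM in control 1 to 3. SAM 1 and SAM 2 were at or under the floor of 3 counts. FGF21 passed the filter on low counts only through the control libraries, so it could hardly have been called other than lower. It is still counted among the 18. STC2, a secreted glycoprotein, fell by 0.90. JDP2, a bZIP repressor, fell by 0.93, while ATF5, a relative of ATF4, rose by 0.77 as the only one. The edgeR adjusted p was 0.00761 for FGF21, 0.00662 for STC2, 0.00746 for JDP2 and 0.00508 for ATF5. ATF4 itself was at 263, 266 and 346 CPM in SAM 1 to 3, against 364, 404 and 374 CPM in control 1 to 3, a log2 fold change of -0.38 that did not pass (edgeR adjusted p 0.0687). The list's count of lower genes was 25 without SAM 3 and 21 without SAM 2, but 5 without SAM 1, 5 without control 1, 4 without control 2 and 1 without control 3. In each library the list had a median deviation of -0.59, -0.38 and -0.41 log2 units in SAM 1 to 3, lowest in SAM 1 as for the ATF4-listed synthetases.

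Upstream of ATF4, the 16 genes for eIF2, its exchange factor, kinases and phosphatases held 1 lower (6.25%) and 3 higher calls (18.75%). Over all genes tested, 5.24% were called lower and 5.19% higher, so the share of lower calls was near that of all genes. PPP1R15A, the stress-induced subunit that directs a phosphatase to eIF2, had a log2 fold change of -0.49 (edgeR adjusted p 0.0313). EIF2B3, EIF2B4 and EIF2B5, subunits of the exchange factor eIF2B, had log2 fold changes of 0.37, 0.39 and 0.33. EIF2AK4, the gene of GCN2, had a log2 fold change of -0.09 and did not pass (edgeR adjusted p 0.606). All 4 calls of this list were lost without SAM 1 or any 1 of the controls.

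Genes that handle tRNA before and after charging were counted in the same way. The list for tRNA processing and export held 24 gene names under 26 identifiers, since RPP14 and KIAA0391 each have more than 1. Its median log2 fold change was 0.20. Of the 26 identifiers, 0 fell and 5 rose (19.2%), against 5.24% lower and 5.19% higher over all genes tested. They were POP1, RPP25, POP7 and POP4, subunits of the ribonuclease that trims the 5′ end of tRNA precursors, and TSEN54 of the tRNA splicing endonuclease. Their log2 fold changes were 0.74 for POP1, 0.71 for RPP25, 0.56 for TSEN54, 0.49 for POP7 and 0.45 for POP4. Without SAM 1 or control 1 only 1 of the 26 was called higher, without control 2 there were 2, and without control 3 there were 0, while without SAM 2 there were 9. XPOT, which exports tRNA from the nucleus, had a log2 fold change of -0.35 (edgeR adjusted p 0.0517). It also stands in the list of amino acid response genes. DESeq2 and limma voom each called 1 gene of the tRNA list lower.

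The 7 elongation factors that deliver charged tRNA to ribosomes had 0 calls by edgeR, DESeq2 or limma voom and 0 with an unadjusted p under 0.05. The 4 genes that complete the charging of mitochondrial glutamine and formylmethionine tRNA had 0 calls by the same tools, with 2 higher at an unadjusted p under 0.05. Likewise 0 of 5 tested genes for aminoacyl-tRNA editing and synthetase-like proteins were called by these tools, with 2 higher at an unadjusted p under 0.05. For comparison with the mitochondrial synthetases, 75 mitochondrial ribosomal protein genes had 0 lower and 6 higher calls (8.0%), near the 5.19% of all genes called higher, with a median log2 fold change of 0.27 against 0.08 for the 16 enzymes. DESeq2 called 17 of the 75 higher and limma voom 5, when higher calls over all genes were 1005 and 792. An unadjusted edgeR p under 0.05 was reached by 37, with no share of all genes to compare. Without SAM 2 the count of higher ribosomal protein genes was 42, when higher calls over all genes were 1661 against 795, and without SAM 1 or any control it was 0.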

How the data were processed

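RNA of 3 SAM and 3 control libraries of PC-3 cells was read on a HiSeq2000 after TruSeq preparation, per the labels. Tools listed in the submitters' processing notes, with no role for each, are STAR 2.4, HTSeq 0.6.1, FastQC 0.10.0, CASAVA 1.8.2, DESeq2 1.8 and SAMtools 0.1.19, beside the builds hg19 and mm10. The study's methods give another SAM dose, kit and sequencer, and the labels were followed. The authors deposited raw counts per Ensembl gene and a normalised signal, which equals the raw count over a size factor for that library. Of 51488 identifiers shared with GENCODE release 44, 99.9% overlap that gene on GRCh38, the build of the printed coordinates. The use of strand in counting was not given in the sources used here.

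Counts were tested in edgeR 4.0.16 (R 4.3.3) with glmQLFit and glmQLFTest after filterByExpr, which kept 15312 genes, and TMM scaling. Treatment was the only term of the model. The test was two-sided and the threshold was a Benjamini-Hochberg adjusted p of 0.05. Levels are TMM-scaled CPM. The fit was tested on simulated data, and chi-square tests found no duplicate libraries. Transcript lengths are those of the longest GENCODE transcript. The alternatives, with DESeq2 1.42.0 and limma 3.58.1 among them, are given with their effect in the closing section. Values in every library are given for called members and for the scaffold genes, and up to 4 called genes are named from most other lists. POP4, ATF4, XPOT and EIF2AK4 were named in addition, after their values were seen. The members and lists were chosen with earlier results of these data known.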

Additional observations from a re-analysis of the deposited data

How the results depend on the processing

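Across all alternatives no result of the 39 members reversed its sign among called genes, and the difference of the cytosolic and mitochondrial medians stayed below 0. The main edgeR fit gave 5 lower and 2 higher cytosolic and 2 higher mitochondrial calls. Upper-quartile factors gave 3 lower and 1 higher cytosolic calls, library totals 7 lower and 1 higher, and no filter 8 lower and 2 higher. DESeq2 called 7 cytosolic genes lower and 3 higher, and limma voom called 5 lower and 3 higher. Calls for all genes were 794 lower and 726 higher with upper-quartile factors, and 961 and 608 with library totals. Without a filter they were 1341 and 1402 of 30874 genes. DESeq2 called 890 of all genes lower and 1005 higher, and limma voom 884 and 792. Removing the trend on length and GC content gave 4 higher cytosolic and 6 higher mitochondrial calls, while higher calls over all genes tested numbered 1396 against 795. An adjusted p under 0.01 gave 0, 0 and 0 calls. With each library left out in turn, the counts ranged from 0 to 8 lower cytosolic, 0 to 3 higher cytosolic and 0 to 5 higher mitochondrial calls. The difference of medians, -0.18 with all libraries, ranged from -0.27 to -0.12. Without control 1 and SAM 2 together there were 1 lower and 0 higher cytosolic and 0 higher mitochondrial calls, and the difference was -0.28. Over all genes tested, calls moved too, with 1572 lower and 1661 higher without SAM 2, 1246 and 1253 without SAM 3, and 508 and 446 without control 1 and SAM 2. The cause was not tested.

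With the replicate number as a block there were 2 lower and 0 higher cytosolic calls and 0 higher mitochondrial calls. The numbers are not known to pair libraries, since same-numbered libraries deviated with correlations of -0.17, -0.40 and 0.13 over genes. Across numbers, SAM 2 and control 1, the libraries rich in CTD-2328D6.1, had the highest correlation at 0.45. SAM 3 with control 2 followed at 0.30. Over all genes tested the block gave 588 lower and 440 higher calls. With 3 libraries a group, depth of 9379258 counts in control 1 and 12020601 in SAM 2 limits low members such as SARS2 most. Exons of 22 of 39 members overlap another gene of the table, 20 of them on the opposite strand, so some of their reads may belong to the partner.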
